A study of Mus musculus with 48 samples.

Results

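The *Zscan4* cluster is a set of near-identical zinc-finger genes on mouse chromosome 7. Its 6 members, *Zscan4a*, *Zscan4b*, *Zscan4c*, *Zscan4d*, *Zscan4e* and *Zscan4f*, were found by their symbols in the gene annotation and are 6 of the 55335 genes of the deposited tables. Another 3 copies, *Zscan4-ps1*, *Zscan4-ps2* and *Zscan4-ps3*, are pseudogenes by their symbols, are called so below and were used only for comparison. The gene annotation used here nevertheless gives each of them a coding sequence of 1521 bases. The study asked how NRDE2, a nuclear protein that binds the RNA helicase MTREX, and its partner CCDC174 act on RNA in mouse embryonic stem cells (mESCs), and it measured RNA by RNA-seq in 28 libraries and ribosome-bound RNA by Ribo-seq in 4, with 2 independent replicates per group.

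All cells were mESCs of a hybrid 129-C57BL/6 background, grown in serum, LIF and 2i inhibitors, in which a tamoxifen-activated Cre (Cre-ERT2) is expressed from the *Rosa26* locus. *Nrde2*-KO cells received 4-hydroxytamoxifen at 100 nM for 4 d, and their control, *Nrde2*-WT, was the same conditional line without induction. *Nrde2d200* cells carry NRDE2 without its amino-terminal part, and *Nrde2-D174R* cells carry NRDE2 with a point mutation. Both lines were compared with the same *Nrde2*-WT libraries as *Nrde2*-KO. *Mtrex*-KO cells received 4-hydroxytamoxifen at 100 nM for 3 d and were compared with the uninduced line, *Mtrex*-WT. In *Ccdc174-dTAG* cells, CCDC174 fused to the FKBP12F36V degron was depleted with dTAG-13 at 500 nM for 24 h. The control, *Ccdc174*-WT, carries the same fusion and received no dTAG-13. A second experiment on *Nrde2* (*Nrde2*-KO 2 and *Nrde2*-WT 2) and the *Ccdc174* experiment were also sampled after 4 h of cycloheximide (CHX) at 0.1 mg/ml, which blocks translation. Because the controls received neither 4-hydroxytamoxifen nor dTAG-13, the compound and the loss of the protein cannot be told apart in these groups.

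ZSCAN4 proteins have a SCAN domain, through which such proteins bind each other, and zinc fingers that bind DNA. Their RNA appears at the 2-cell (2C) stage of the mouse embryo, when the embryo's own genome is first transcribed. In mESC cultures it is present at any one time in few cells, which also express other genes of the 2C stage and activate the MERVL retrotransposon. Members are known for a role in telomere maintenance and in the stability of the genome of mESCs. In bulk libraries such as these, more *Zscan4*-positive cells and more RNA per positive cell cannot be told apart.

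The members lie within 608 kb of GRCm38 (mm10). *Zscan4a* was found at chr7:10794242-10799057, *Zscan4b* at chr7:10900740-10905050, *Zscan4d* at chr7:11161374-11166159 and *Zscan4e* at chr7:11306378-11310682, all on the minus strand. *Zscan4c*, at chr7:11005745-11010547, and *Zscan4f*, at chr7:11397915-11402318, lie on the plus strand. Each has 4 exons in GENCODE release M21, which annotates *Zscan4a* as a pseudogene and the other members as protein coding. The transcripts of the members are between 96.6% and 99.7% identical in sequence. *Zscan4b* and *Zscan4e* form the closest pair (99.7%), followed by *Zscan4c* and *Zscan4f* (99.6%).

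The sequence decides how much of each gene can be counted, because the authors used 50-base reads and kept only those that map to a single place. Of the 1319 windows of 50 bases in the aligned coding sequence, 213 (16.1%) were the same in all members, and none differed between all 6. Windows with 5 versions, the highest number found, made up 9.55% (126 windows). One of these, in exon 4, is shown for each member below, with capitals at the 8 positions that vary among them. *Zscan4b* (chr7:10901659-10901708) and *Zscan4e* (chr7:11307288-11307337) are the same here, so that a read of these bases from either is not counted. The bases of *Zscan4a* (chr7:10795661-10795710), *Zscan4d* (chr7:11162786-11162835) and *Zscan4f* (chr7:11401275-11401324) occur once in the genome, whereas those of *Zscan4c* (chr7:11009082-11009131) occur 2 times.
Zscan4a: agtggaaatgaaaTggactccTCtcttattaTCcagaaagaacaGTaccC
Zscan4b: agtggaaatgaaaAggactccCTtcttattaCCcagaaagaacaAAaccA
Zscan4c: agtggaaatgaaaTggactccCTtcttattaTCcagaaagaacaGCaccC
Zscan4d: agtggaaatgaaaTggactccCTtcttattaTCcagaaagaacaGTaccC
Zscan4e: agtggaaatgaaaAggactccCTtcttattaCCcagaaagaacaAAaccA
Zscan4f: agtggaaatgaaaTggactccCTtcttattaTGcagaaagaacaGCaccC

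A window of exon 2 shows the opposite case. It is given for *Zscan4d* (chr7:11165299-11165348, minus strand), is identical in all 6 members and was found 9 times in the genome, so no read of exactly these bases entered the tables.
Window shared by all members: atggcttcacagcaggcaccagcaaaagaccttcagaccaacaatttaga

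The pair of primers with which the study measured *Zscan4* by quantitative PCR is shown because it bears on what the RNA-seq values add. Both primers matched all 6 members and the 3 pseudogenes without a mismatch and span 134 bases of exons 2 and 3 of the transcript, so that such a measurement gives the sum of the family and the counts below give its members.
Forward primer: gagattcatggagagtctgactgatgagtg
Reverse primer: gctgttgtttcaaaagcttgatgacttc

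Of all 50-base positions of their exons, 48.6% were unique to the gene in *Zscan4d* (1080 positions) and 36.3% in *Zscan4a* (809 positions). The share was 14.5% in *Zscan4c* (322 positions), 9.88% in *Zscan4b* (178 positions) and 8.74% in *Zscan4f* (171 positions), and *Zscan4e* had 197 unique positions of 1793. A gene's counted level is therefore no guide to how it ranks among the members, and levels of different members are compared below per 1000 unique positions only. The stretches were computed from the C57BL/6J reference, and how far 129 alleles change them was not tested.

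The bases just upstream of the genes were compared because the members moved together in the results that follow. RefSeq promoter windows were found for 4 members (*Zscan4b*, *Zscan4c*, *Zscan4d* and *Zscan4f*), and none was matched for *Zscan4a* and *Zscan4e*. Over their aligned bases these windows were between 94.7% (*Zscan4b* and *Zscan4c*) and 99.6% (*Zscan4c* and *Zscan4f*, 1 mismatch in 227 bases) identical. The motif TATAAA, searched on both strands, was present in all 4, at 31 bases before the start in *Zscan4b* and *Zscan4f*, 54 in *Zscan4c* and 65 in *Zscan4d*. It is the same aligned site in each, and its distance differs because the annotated starts differ. Of 32851 promoter windows in the table, 4063 (12.4%) hold it. The near-identical windows of the members are not separate finds to set beside that share. The 250 bases before the start of *Zscan4f* (chr7:11397665-11397914, plus strand, GRCm38.p6) are shown with capitals at the 14 positions where at least 1 of the other 3 windows has another base.
Zscan4f upstream: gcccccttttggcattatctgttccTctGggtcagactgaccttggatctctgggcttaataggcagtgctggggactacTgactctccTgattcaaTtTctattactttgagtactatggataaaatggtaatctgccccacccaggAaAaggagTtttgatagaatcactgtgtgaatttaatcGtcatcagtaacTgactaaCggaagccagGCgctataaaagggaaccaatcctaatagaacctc

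The RNA-seq libraries held between 28683644 and 36272309 reads in genes and the Ribo-seq libraries between 3475051 and 5035940. *Nrde2* was at 19.7 ± 0.806 normalized CPM (SD, n = 2) in *Nrde2*-KO against 40.8 ± 0.743 in its control and at 19.7 ± 0.186 in *Nrde2*-KO 2 against 52.6 ± 0.994, and *Mtrex* was at 43.7 ± 3.42 in *Mtrex*-KO against 115 ± 5.11. With CHX, *Nrde2* was at 253 ± 5.99 in *Nrde2*-KO 2 and 233 ± 12.9 in *Nrde2*-WT 2. A gene-level count includes exons outside the deleted part and does not check the deletion there. *Ccdc174* RNA does not check a depletion of protein. Markers of mESCs (*Pou5f1*, *Nanog*, *Sox2* and 5 others) summed to between 2771 and 4842 normalized CPM in every library. Their sum was lower in *Nrde2*-KO (3358 and 3823) than in its control (4128 and 4618), with 4 of 8 genes below and 1 above. In *Nrde2*-KO 2 it was 4337 and 4403 against 4698 and 4734 (3 below, 2 above). *Mtrex*-KO had 2978 and 3986 against 4389 and 4842 (4 below, 1 above). With CHX, *Nrde2*-KO 2 had 2909 and 2990 against 3461 and 3499 (5 below, 1 above). The part of this fall was not tested. Markers of trophectoderm (4 genes) summed to between 1.76 and 18.2, of primitive endoderm (5 genes) to between 3.49 and 18.0 and of fibroblasts (4 genes) to between 1.54 and 8.56. Markers of mesoderm and ectoderm (4 genes, among them *Nes*) summed to between 32.9 and 226.

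Levels of the members are given as normalized CPM, that is, the deposited CPM (reads of a gene scaled to a common library total) divided by a factor per library that makes the bulk of genes comparable. In *Nrde2*-WT, the 6 members together had 2.71 and 1.86 normalized CPM, from 90 and 72 reads. The sum was 23.2 and 15.6 in *Nrde2*-KO, 10.5 and 15.8 in *Nrde2d200* and 1.78 and 2.75 in *Nrde2-D174R*. Both *Nrde2*-KO libraries lay above both controls, as did both *Nrde2d200* libraries, whereas *Nrde2-D174R* and *Nrde2*-WT overlapped. An exact permutation test of 2 libraries against 2 cannot give a two-sided p below 0.33. The share of all genes without overlap was not counted, so overlap and its absence are description only, here and below. In the second experiment the sum was 6.36 and 5.60 in *Nrde2*-WT 2 and 76.5 and 69.7 in *Nrde2*-KO 2, and with CHX it was 4.16 and 4.03 in *Nrde2*-WT 2 and 42.0 and 38.6 in *Nrde2*-KO 2. The *Mtrex* experiment had 12.4 and 4.30 in *Mtrex*-WT and 299 and 87.0 in *Mtrex*-KO. *Ccdc174*-WT had sums of 2.71 and 4.70, overlapping with *Ccdc174-dTAG*, where they were 2.69 and 7.12.

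Ordered by the mean of the sum, the groups ran from *Mtrex*-KO (193 ± 150, SD, n = 2) through *Nrde2*-KO 2 (73.1 ± 4.82), *Nrde2*-KO 2 with CHX (40.3 ± 2.39), *Nrde2*-KO (19.4 ± 5.36) and *Nrde2d200* (13.2 ± 3.74) to *Mtrex*-WT (8.34 ± 5.70) and *Nrde2*-WT 2 (5.98 ± 0.538). Below these lay *Ccdc174-dTAG* (4.90 ± 3.13), *Nrde2*-WT 2 with CHX (4.10 ± 0.0950), *Ccdc174*-WT (3.70 ± 1.41), *Ccdc174-dTAG* with CHX (2.46 ± 1.65), *Ccdc174*-WT with CHX (2.43 ± 1.35), *Nrde2*-WT (2.29 ± 0.603) and *Nrde2-D174R* (2.26 ± 0.688). The libraries of *Mtrex*-KO, *Nrde2*-KO 2 and *Nrde2*-KO 2 with CHX did not overlap with those of the next group in this order. From *Nrde2*-KO down, each group overlapped with the next. The 4 control groups without CHX differed in level, from 2.29 to 8.34, so each mutant was compared with the control of its own experiment.

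**Figure D1:**
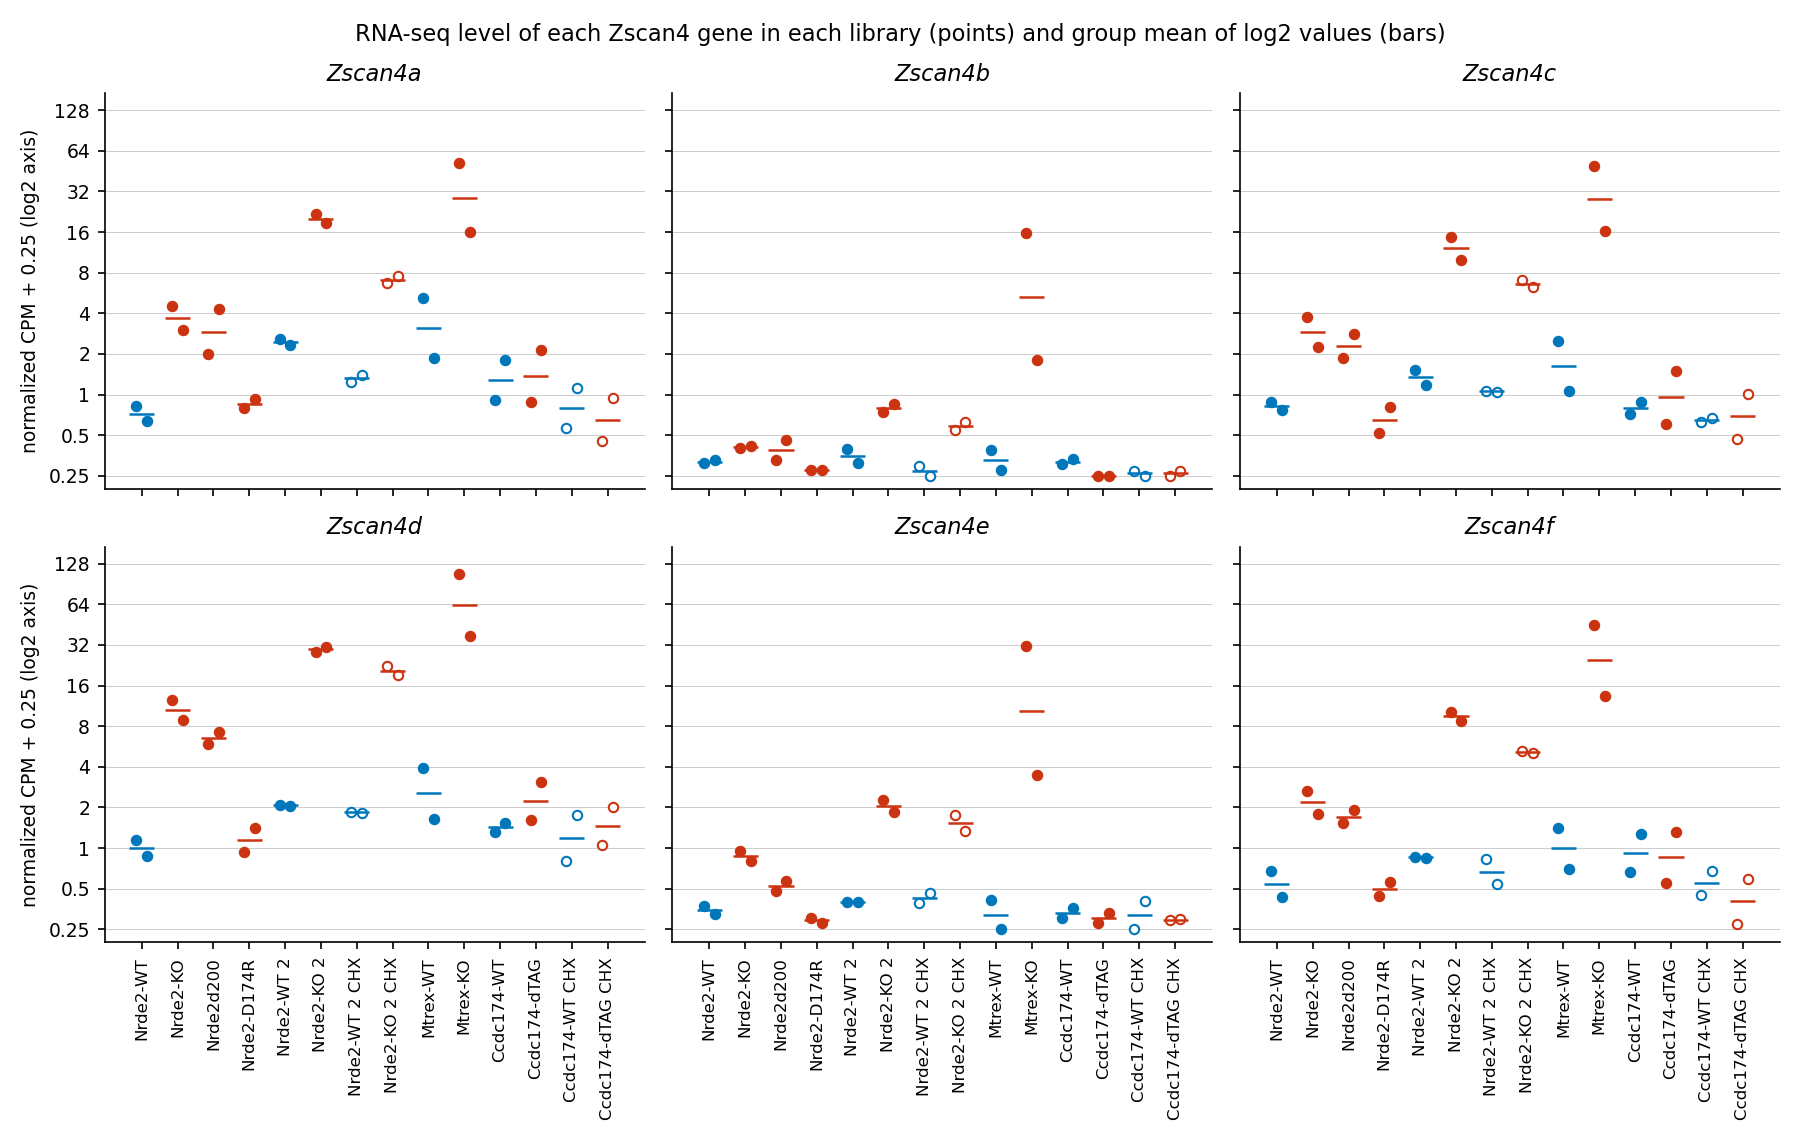
Level of each *Zscan4* gene in every RNA-seq library, as normalized CPM plus 0.25 on a log2 axis, by group. Points are single libraries (open with CHX, blue for controls, red for mutant or depleted cells), and short bars are the group means of the log2 values. *Zscan4d* reached 107 and 37.3 normalized CPM in *Mtrex*-KO, and *Zscan4b* stayed below 1 in every group other than *Mtrex*-KO.

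The first comparison asked what the loss of NRDE2 does to each member. *Zscan4d*, known as the main member of the 2C embryo, had 0.904 and 0.620 normalized CPM in *Nrde2*-WT (30 and 24 reads) and 12.2 and 8.59 in *Nrde2*-KO (481 and 360 reads). *Zscan4a* had 0.573 and 0.387 in *Nrde2*-WT (19 and 15 reads) and 4.30 and 2.77 in *Nrde2*-KO (170 and 116 reads). For both genes each *Nrde2*-KO library was above each control library. *Zscan4c* and *Zscan4f* are known as the main members transcribed in mESCs. *Zscan4c* had 0.633 and 0.517 against 3.49 and 2.00, and *Zscan4f* 0.422 and 0.181 against 2.40 and 1.55, again without overlap. *Zscan4e* rested on 4 and 3 reads in *Nrde2*-WT and 28 and 23 in *Nrde2*-KO, and *Zscan4b* on 2 and 3 against 6 and 7.

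On the log2(normalized CPM + 0.25) scale, which makes changes of low genes smaller, *Zscan4d* was up-regulated by 3.39 (SE 0.43, adjusted p = 1.6e-05 from limma). *Zscan4a* rose by 2.36 (SE 0.54, adjusted p = 0.0034 from limma), *Zscan4f* by 2.02 (SE 0.49, adjusted p = 0.0048) and *Zscan4c* by 1.82 (SE 0.49, adjusted p = 0.0096). A gene was called when its adjusted p was under 0.01 and its log2 difference was over 1 in either direction. Thus 4 of the 6 members were called in *Nrde2*-KO, all up, where 5% of the 14889 genes tested were called in either direction. *Zscan4e* had a log2 difference of 1.33 (adjusted p = 0.10 from limma) and *Zscan4b* of 0.36 (adjusted p = 0.68). Both passed the filter on low values (a mean of at least 0.5 CPM over the 20 libraries without CHX) only through *Mtrex*-KO. When any 1 of the 4 libraries was left out, *Zscan4d* alone stayed called, and the adjusted p of *Zscan4a* lay between 0.011 and 0.045. The summed level of trophectoderm markers was between 6.13 and 8.57 in *Nrde2*-KO and between 2.53 and 2.82 in *Nrde2*-WT, with 2 of 4 genes above in both libraries, and that of endoderm markers between 15.2 and 18.0 against 10.4 and 10.5, with 2 of 5 genes above and 1 below. Mesoderm and ectoderm markers summed to between 39.6 and 39.8 in *Nrde2*-KO against 51.3 and 55.7. No trophectoderm or endoderm marker was at 0 in all 4 libraries, and the part of these markers in the result was not tested.

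The second experiment started from higher control levels. *Zscan4d* had 1.84 and 1.80 normalized CPM in *Nrde2*-WT 2 and 28.2 and 30.9 in *Nrde2*-KO 2 (907 and 1116 reads). *Zscan4a* had 2.33 and 2.07 against 21.5 and 18.3, so that in the controls of this experiment it was counted above *Zscan4d*. For *Zscan4c* the values were 1.28 and 0.928 against 14.4 and 9.76, and for *Zscan4f* 0.613 and 0.599 against 9.91 and 8.54. All 4 genes were without overlap between the groups, which is description only, as the share of all genes without overlap was not counted. *Zscan4e* had 0.146 and 0.150 against 2.02 and 1.60, and *Zscan4b* 0.146 and 0.0599 against 0.497 and 0.608 (16 and 22 reads). Of the 6 members, 5 were called up-regulated in *Nrde2*-KO 2, where 4.82% of all genes were called. The log2 fold changes were 3.85 for *Zscan4d* (SE 0.43, adjusted p = 3.7e-06 from limma), 3.47 for *Zscan4f* (SE 0.49), 3.17 for *Zscan4c* (SE 0.49), 3.04 for *Zscan4a* (SE 0.54) and 2.37 for *Zscan4e* (SE 0.60, adjusted p = 0.0060). *Zscan4b* had 1.19 (adjusted p = 0.13). Of the 4 members that pass the filter in the 8 control libraries alone, all were called. The sum of the members was 12.2-fold higher in *Nrde2*-KO 2 than in its control, and 8.50-fold in the first experiment. With any 1 library left out, *Zscan4e* was no longer called and the other 4 were. Trophectoderm markers summed to between 6.53 and 6.96 in *Nrde2*-KO 2 and between 2.16 and 2.77 in *Nrde2*-WT 2 (3 of 4 genes above), and their part was not tested.

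The genotypes were also compared with CHX. *Zscan4d* had 1.60 and 1.57 normalized CPM in *Nrde2*-WT 2 and 22.0 and 19.0 in *Nrde2*-KO 2, *Zscan4a* 0.981 and 1.16 against 6.44 and 7.33, and *Zscan4c* 0.814 and 0.796 against 6.81 and 6.01. *Zscan4f* had 0.574 and 0.290 against 4.99 and 4.84. None of these groups overlapped, again as description only. Only these 4 members passed the filter in the 8 libraries with CHX, and all 4 were called up-regulated, where 4.55% of 15476 genes were called. Their log2 fold changes were 3.49 (*Zscan4d*, SE 0.35), 2.95 (*Zscan4f*, SE 0.36), 2.66 (*Zscan4c*, SE 0.29) and 2.44 (*Zscan4a*, SE 0.36), with adjusted p between 3.3e-05 and 3.8e-04 from limma. *Zscan4e*, not tested here, had 61 and 44 reads in *Nrde2*-KO 2 with CHX and 6 and 9 in its control. Trophectoderm markers summed to between 15.1 and 15.3 in *Nrde2*-KO 2 with CHX against 5.86 and 5.96 (4 of 4 genes above), fibroblast markers to between 7.18 and 8.56 against 2.94 and 3.83 (2 of 4 above and 1 below) and endoderm markers to between 13.4 and 16.5 against 11.5 and 11.8 (3 of 5 above and 1 below), and their part was not tested.

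*Nrde2d200* and *Nrde2-D174R*, which express altered NRDE2, were each set against *Nrde2*-WT. They are separately edited lines, so the mutation and the line cannot be told apart. *Zscan4d* had 5.63 and 7.02 normalized CPM in *Nrde2d200* (221 and 263 reads) and 0.683 and 1.15 in *Nrde2-D174R* (25 and 41 reads). *Zscan4a* had 1.73 and 4.09 in *Nrde2d200* and 0.547 and 0.673 in *Nrde2-D174R*. *Nrde2d200* lay above *Nrde2*-WT in both libraries for *Zscan4a*, *Zscan4c*, *Zscan4d* and *Zscan4f*, whereas *Nrde2-D174R* overlapped with *Nrde2*-WT for *Zscan4a*, *Zscan4c*, *Zscan4d* and *Zscan4f*. *Zscan4c* had 1.60 and 2.54 in *Nrde2d200* and 0.273 and 0.561 in *Nrde2-D174R*, and *Zscan4f* 1.27 and 1.66 and 0.191 and 0.309, respectively. In *Nrde2d200*, 1 of 6 members was called, *Zscan4d*, by 2.71 on the log2 scale (SE 0.43, adjusted p = 4.0e-04 from limma), where 2.65% of all genes were called. *Zscan4a* (2.02, adjusted p = 0.017), *Zscan4f* (1.66, adjusted p = 0.028) and *Zscan4c* (1.47, adjusted p = 0.050) did not pass in limma at this threshold. Without *Nrde2d200* replicate 2, no member was called. The sum was 5.77-fold that of *Nrde2*-WT. Trophectoderm markers summed to between 4.67 and 5.2 in *Nrde2d200* against 2.53 and 2.82 (1 of 4 genes above, none below) and endoderm markers to between 13.2 and 15.7 against 10.4 and 10.5 (3 of 5 above, none below), and their part was not tested.

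In *Nrde2-D174R*, none of the 6 members was called by limma, edgeR or DESeq2, and none had an unadjusted p below 0.05, where 0.215% of all genes were called. The log2 differences from *Nrde2*-WT ran from -0.34 (*Zscan4c*, 95% interval -1.37 to 0.70) to 0.24 (*Zscan4a*, -0.90 to 1.39). For *Zscan4d* the difference was 0.19 (-0.71 to 1.09), and the summed level was 0.990 times that of *Nrde2*-WT. An up-regulation of *Zscan4d* as large as that in *Nrde2*-KO was thus outside the interval. Trophectoderm markers summed to between 5.56 and 6.67 in *Nrde2-D174R*, above the control, with 1 of 4 genes above and 1 below. When *Nrde2*-KO was set against *Nrde2d200* directly, none of the 6 members was called by limma, edgeR or DESeq2 and none had an unadjusted p below 0.05, where 1.73% of all genes were called. The difference in *Zscan4d* was 0.68 (95% interval -0.22 to 1.58) and that in *Zscan4a* 0.34 (-0.81 to 1.48).

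Loss of MTREX, a helicase that feeds RNA to the nuclear exosome for degradation, was followed by the highest levels of the series. *Zscan4d* had 3.70 and 1.39 normalized CPM in *Mtrex*-WT (136 and 49 reads) and 107 and 37.3 in *Mtrex*-KO (3098 and 1080 reads). *Zscan4c* had 2.26 and 0.821 against 48.8 and 16.1, *Zscan4f* 1.17 and 0.453 against 44.8 and 13.2, and *Zscan4a* 4.95 and 1.61 against 51.3 and 15.7. In each genotype replicate 1 was the higher library for all 6 members, by 2.87-fold in the sum of *Mtrex*-WT and 3.43-fold in *Mtrex*-KO. Both *Mtrex*-KO libraries nevertheless lay above both control libraries for each of the 6 members. For *Zscan4b* and *Zscan4e*, which passed the filter only through *Mtrex*-KO, this had to be so. How many of all genes separate in this way was not counted, so the separation is description only.

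*Zscan4b* and *Zscan4e* also had their highest counts in *Mtrex*-KO. *Zscan4e* had 6 and 0 reads in *Mtrex*-WT and 892 and 93 in *Mtrex*-KO, that is, 0.163 and 0 against 30.9 and 3.21 normalized CPM. A count of 0 at that depth allows a level of up to 0.0850. *Zscan4b* had 5 and 1 reads against 445 and 45, or 0.136 and 0.0283 against 15.4 and 1.55 normalized CPM.

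All 6 members were called up-regulated in *Mtrex*-KO, where 26.7% of all genes were called. *Zscan4b* and *Zscan4e* passed the filter only through *Mtrex*-KO, where they are high, and so had to differ, which leaves 4 of 4 members to set beside that share. The log2 fold changes were 5.01 for *Zscan4e* (SE 0.60), 4.64 for *Zscan4d* (SE 0.43), 4.62 for *Zscan4f* (SE 0.49), 4.11 for *Zscan4c* (SE 0.49), 4.02 for *Zscan4b* (SE 0.59) and 3.20 for *Zscan4a* (SE 0.54), with adjusted p between 4.3e-08 and 5.6e-05 from limma. The sum was 23.1-fold that of *Mtrex*-WT. Without *Mtrex*-KO replicate 1, *Zscan4b* and *Zscan4e* fell below the filter and the other 4 remained called. Trophectoderm markers summed to between 12.2 and 18.2 in *Mtrex*-KO against 2.95 and 3.45 (3 of 4 genes above), and endoderm markers to between 12.8 and 14.2 against 9.49 and 9.52 (4 of 5 above and 1 below). Mesoderm and ectoderm markers summed to between 116 and 135 against 47.1 and 56.7 (2 of 4 above and 2 below). No trophectoderm or endoderm marker was at 0 in all 4 libraries, and the part of these markers was not tested.

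**Figure D2:**
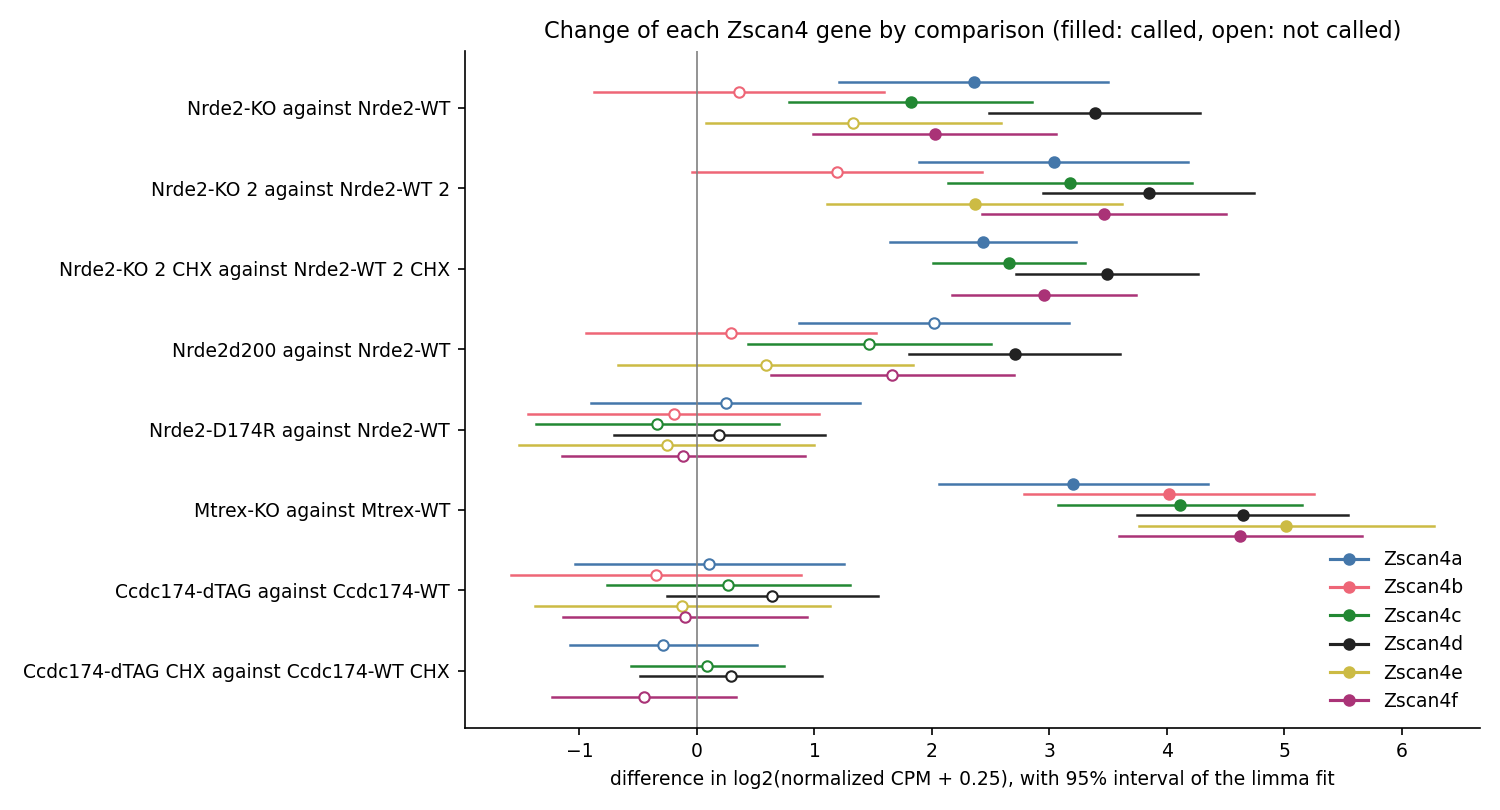
Difference of each *Zscan4* gene between groups (horizontal axis, log2 of normalized CPM + 0.25) with its 95% interval from limma, by comparison. Filled points were called, and members that failed the filter with CHX have no point. *Mtrex*-KO has 6 filled points, *Nrde2*-KO 2 has 5, *Nrde2*-KO and *Nrde2*-KO 2 with CHX have 4 each, *Nrde2d200* has 1, and *Nrde2-D174R* and *Ccdc174-dTAG*, without or with CHX, have none.

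The effect of *Mtrex*-KO was then compared with that of *Nrde2*-KO as an interaction, each against its own control. It was larger by 3.69 on the log2 scale for *Zscan4e* (SE 0.84, adjusted p = 0.0018 from limma), by 3.66 for *Zscan4b* (SE 0.83, adjusted p = 0.0017) and by 2.60 for *Zscan4f* (SE 0.70, adjusted p = 0.0056). The difference was 2.29 for *Zscan4c* (adjusted p = 0.013), 1.26 for *Zscan4d* (adjusted p = 0.098) and 0.85 for *Zscan4a* (adjusted p = 0.39), which were not called. *Zscan4b* and *Zscan4e* entered this fit only through *Mtrex*-KO. Of the other 4 members 1 was called, *Zscan4f*, where 18.7% of all genes were. edgeR called 0 of the 6 members (unadjusted p below 0.05 for *Zscan4b*, *Zscan4c*, *Zscan4e* and *Zscan4f*), DESeq2 called 2 (*Zscan4b* and *Zscan4e*), and limma on the compared groups alone called 0, with adjusted p of 0.026, 0.028 and 0.025 for *Zscan4b*, *Zscan4e* and *Zscan4f*. Without *Mtrex*-KO replicate 1 none of the 4 members still tested was called, and without *Mtrex*-KO replicate 2 all members other than *Zscan4a* were. Without *Mtrex*-WT replicate 2 the one called was *Zscan4b*. The induction lasted 3 d in *Mtrex*-KO and 4 d in *Nrde2*-KO, so genotype and time cannot be told apart here.

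No member passed the test after depletion of CCDC174, a protein that interacts with NRDE2. *Zscan4d* had 1.36 and 2.83 normalized CPM in *Ccdc174-dTAG* against 1.07 and 1.29 in the control, and *Zscan4a* had 0.637 and 1.90 against 0.657 and 1.57. *Zscan4d* was above both controls in both depleted libraries, and *Zscan4a* overlapped. In both groups replicate 2 was the higher library for at least 5 of 6 members, by 1.73-fold in the sum of *Ccdc174*-WT and 2.65-fold in *Ccdc174-dTAG*. Limma, edgeR and DESeq2 called none of the 6 members, and none had an unadjusted p below 0.05, where 1.38% of all genes were called. The log2 difference of *Zscan4d* was 0.64 (95% interval -0.26 to 1.54, adjusted p = 0.37 from limma) and those of the other members lay between -0.35 and 0.27. With CHX, none of the 4 members tested was called by limma, edgeR or DESeq2, and none had an unadjusted p below 0.05, where 0.911% of genes were called. The differences with CHX lay between -0.45 (*Zscan4f*, 95% interval -1.24 to 0.33) and 0.29 (*Zscan4d*, -0.49 to 1.06).

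CHX itself was compared with no CHX within each line, in 16 libraries and 15133 genes, of which the 4 members other than *Zscan4b* and *Zscan4e* passed the filter. *Zscan4a* went from 21.5 and 18.3 normalized CPM to 6.44 and 7.33 in *Nrde2*-KO 2, a fall by 1.49 on the log2 scale (SE 0.43, adjusted p = 0.0077 from limma). It was the 1 of 4 members called there, where 14% of all genes were called, 10.9% up and 3.17% down. The call was lost when any 1 of the 4 libraries compared was left out. *Zscan4c* (-0.87), *Zscan4f* (-0.87) and *Zscan4d* (-0.53) had adjusted p between 0.057 and 0.21. In *Nrde2*-WT 2, limma, edgeR and DESeq2 called none of the 4 (14.1% of all genes called), and none had an unadjusted p below 0.05. The same held in *Ccdc174*-WT (15.3% of all genes called). In *Ccdc174-dTAG* no tool called any of the 4 (14.5% of all genes called), but *Zscan4a* (-1.09, adjusted p = 0.040 from limma) and *Zscan4f* (-1.08, adjusted p = 0.035) had an unadjusted p below 0.05. With the replicate number as a block in limma, *Zscan4a* (adjusted p = 4.2e-05) and *Zscan4f* (adjusted p = 3.4e-04) were called. Without *Ccdc174-dTAG* replicate 1 both of these were called too, and without *Ccdc174-dTAG* CHX replicate 2 *Zscan4f* was.

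Each member tested had a difference between CHX and no CHX below 0 in each line. The median over all genes lay between -0.008 and 0.030. The members are near-identical and moved together, so they are not independent observations and nothing is read from their number. The sum of the members was 0.552 times that without CHX in *Nrde2*-KO 2, 0.685 times in *Nrde2*-WT 2, 0.655 times in *Ccdc174*-WT and 0.502 times in *Ccdc174-dTAG*. Whether the effect of *Nrde2* loss differed with CHX was tested as an interaction. The log2 differences lay between -0.60 and -0.35, no tool called any of the 4 members, none had an unadjusted p below 0.05, and 0.172% of all genes were called. With the CPM as deposited, all genes with CHX shift up by between 0.20 and 0.24 in the median, and *Zscan4d* in *Nrde2*-WT 2 then has a difference of 0.01 in place of -0.17.

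The make-up of the cluster differed between groups. Of the reads of *Zscan4a* and *Zscan4d*, the members with most unique positions, *Zscan4d* had 61.2% and 61.5% in *Nrde2*-WT and 73.9% and 75.6% in *Nrde2*-KO. In *Mtrex*-WT the share was 42.8% and 46.2%, and in *Mtrex*-KO it was 67.7% and 70.4%. In the second experiment it was 44.1% and 46.5% in *Nrde2*-WT 2 and 56.8% and 62.8% in *Nrde2*-KO 2. In these 3 experiments both mutant libraries lay above both controls. With CHX the share was 62.0% and 57.5% in *Nrde2*-WT 2 and 77.3% and 72.1% in *Nrde2*-KO 2, in each genotype above both libraries without CHX. *Nrde2d200* (76.5% and 63.2%) also lay above *Nrde2*-WT, and *Nrde2-D174R* (55.6% and 63.1%) overlapped with it. After depletion of CCDC174 the share was 68.1% and 59.8%, overlapping with its control (61.9% and 45.2%). With CHX both depleted libraries had at least 72.0%, above the control at 64.1% and 63.6%. With 2 libraries against 2, the smallest two-sided p of an exact permutation test is 0.33, so these shares have no test of their own.

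**Figure D3:**
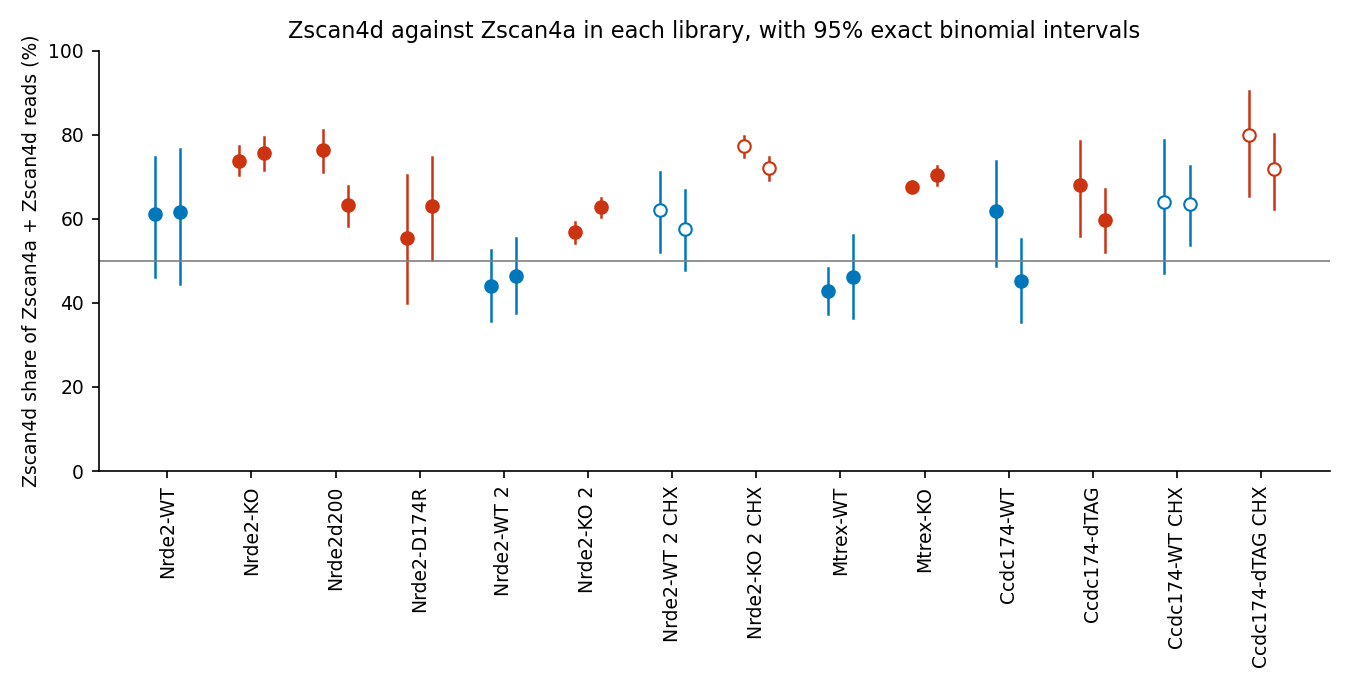
Share of *Zscan4d* among the reads of *Zscan4a* and *Zscan4d* in each RNA-seq library (vertical axis, percent) by group, with 95% Clopper-Pearson intervals for counting error (blue, controls; red, mutant or depleted cells; open points, CHX; grey line, 50%). *Mtrex*-WT lies at 42.8% and 46.2% and *Mtrex*-KO at 67.7% and 70.4%.

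*Zscan4b* and *Zscan4e* together held 15.5% of the cluster's reads in *Mtrex*-KO replicate 1 (95% Clopper-Pearson interval 14.8 to 16.3) and 5.47% in replicate 2 (4.62 to 6.43). Their share was 2.42% and 0.658% in *Mtrex*-WT, 3.70% and 4.58% in *Nrde2*-KO and 3.29% and 3.18% in *Nrde2*-KO 2. The highest share outside *Mtrex*-KO was in *Nrde2*-WT, 6.67% and 8.33% of 90 and 72 reads. The libraries carry no molecular identifiers, so these intervals cover counting error only.

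**Figure D4:**
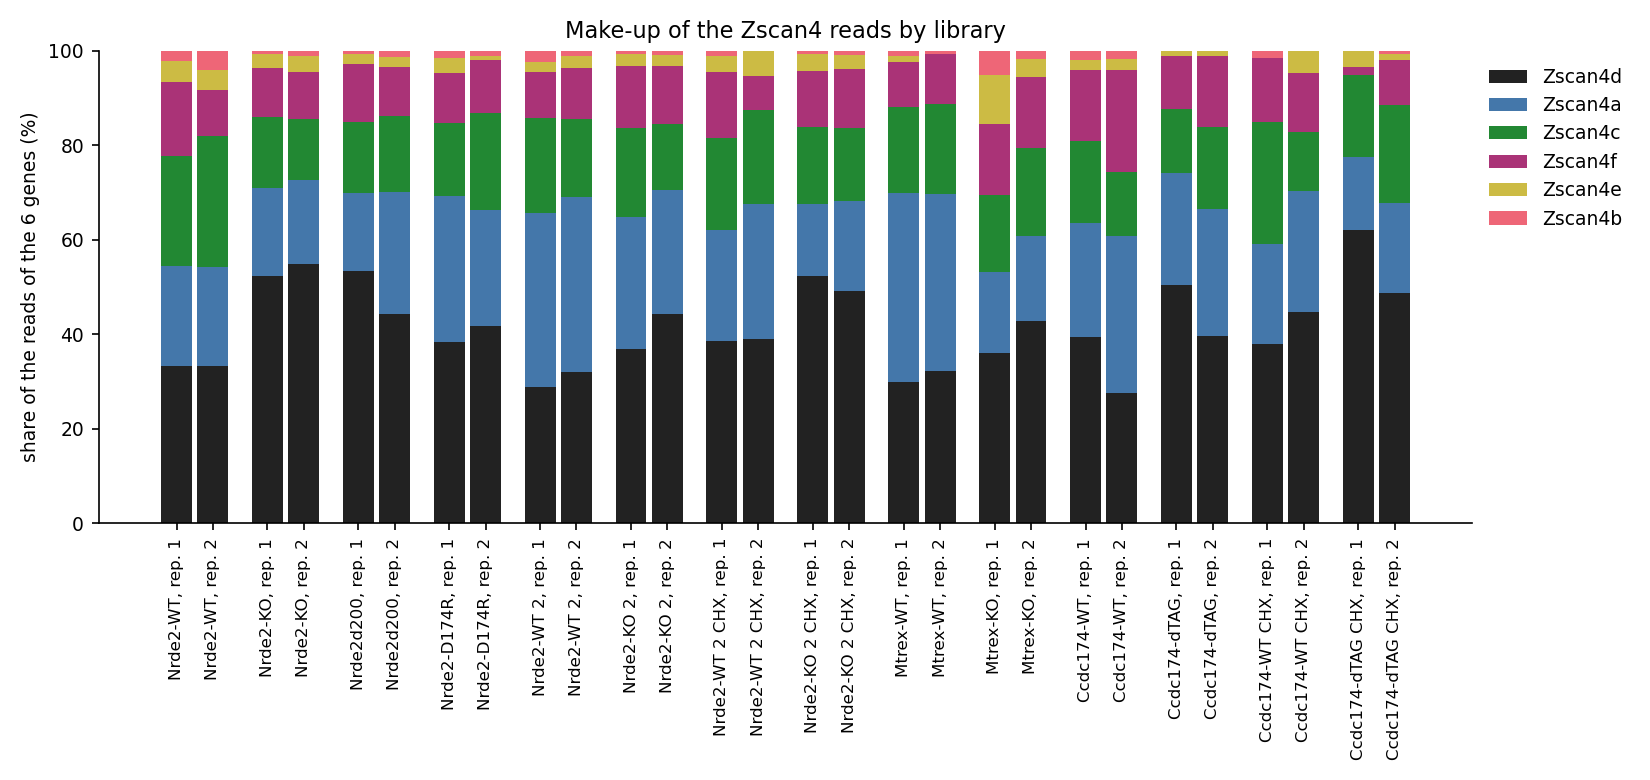
Share of each member in the reads of the 6 *Zscan4* genes (vertical axis, percent), by RNA-seq library. *Zscan4d* held most reads in *Nrde2*-KO (52.4% and 55.0%), and *Zscan4b* with *Zscan4e* reached 15.5% in *Mtrex*-KO replicate 1.

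Per 1000 unique positions, the order of the members changed. In *Nrde2*-KO 2, *Zscan4f* had 53.9 ± 5.63 normalized CPM per 1000 unique positions (SD, n = 2), *Zscan4c* 37.6 ± 10.3, *Zscan4d* 27.3 ± 1.77, *Zscan4a* 24.6 ± 2.78, *Zscan4e* 9.19 ± 1.49 and *Zscan4b* 3.10 ± 0.443. *Zscan4d* and *Zscan4a* did not differ beyond their spread, while *Zscan4e* and *Zscan4b* lay below the other 4. In *Mtrex*-KO the values were 170 ± 131 for *Zscan4f*, 101 ± 71.9 for *Zscan4c*, 86.7 ± 99.5 for *Zscan4e*, 67.0 ± 46.0 for *Zscan4d*, 47.7 ± 55.1 for *Zscan4b* and 41.4 ± 31.1 for *Zscan4a*, and no neighbours in this order differed beyond their spread between libraries. Within each *Mtrex*-KO library *Zscan4f* was above *Zscan4c* (262 and 77.3 against 152 and 49.9). *Zscan4d* was likewise above *Zscan4b* (99.5 and 34.5 against 86.7 and 8.72). The other neighbours changed order between the libraries. In *Nrde2*-WT, *Zscan4c* had 1.79 ± 0.255, *Zscan4f* 1.76 ± 0.997 and *Zscan4d* 0.706 ± 0.186 on this scale. *Zscan4f* or *Zscan4c* was first in all 14 groups per unique position, whereas as counted *Zscan4d* was first in 12 groups and *Zscan4a* in *Mtrex*-WT and *Nrde2*-WT 2.

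**Figure D5:**
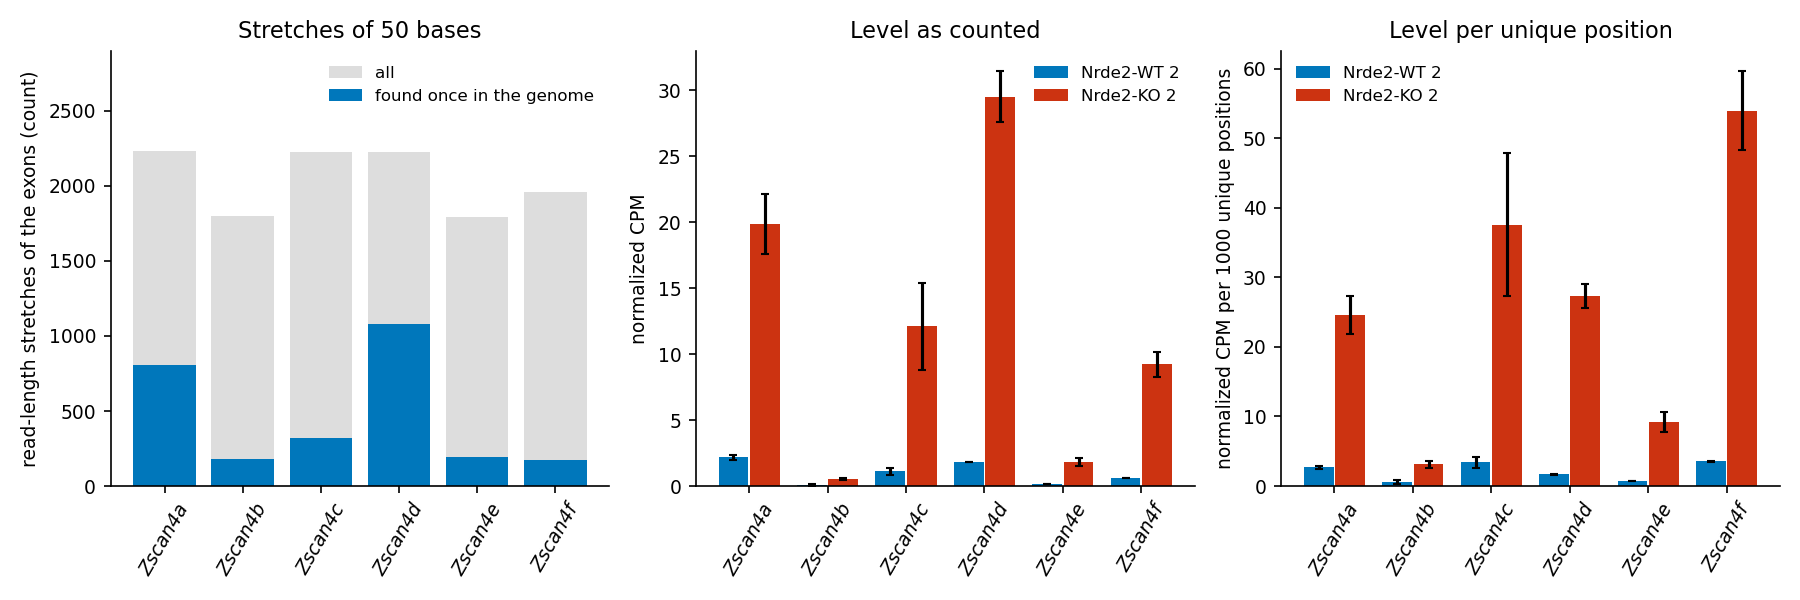
Left, number of 50-base stretches in the exons of each member (grey, all; blue, found once in the genome). Middle, level of each member as normalized CPM, and right, as normalized CPM per 1000 unique positions, in *Nrde2*-WT 2 (blue) and *Nrde2*-KO 2 (red), with bars for the mean and error bars for the SD of 2 libraries. As counted *Zscan4d* was highest in *Nrde2*-KO 2 (29.5 ± 1.91), and per 1000 unique positions *Zscan4f* was (53.9 ± 5.63).

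Ribo-seq, which sequences the RNA fragments that ribosomes protect, gave almost no reads of the cluster. Its *Nrde2*-KO cells received 4-hydroxytamoxifen for 4 d by the labels, and the methods give 3 d followed by a night in culture. In WT, *Zscan4f* had 1 read in replicate 1, *Zscan4c* had 1 read in replicate 2, and the other members were at 0. In *Nrde2*-KO replicate 1, *Zscan4a* and *Zscan4d* had 2 reads each and *Zscan4f* had 1, and in replicate 2 *Zscan4d* had 4. At these depths a count of 0 allows a level of up to between 0.389 and 0.537 normalized CPM. No member passed the filter of the Ribo-seq fit, so no change in ribosome-bound RNA could be tested. Footprints are shorter than the RNA-seq reads, and the unique positions above do not apply to them.

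The pseudogenes moved with the members. In *Nrde2*-KO, where 3.02% of all genes were called up-regulated, *Zscan4-ps3* (2.30, SE 0.52, adjusted p = 0.0029 from limma) and *Zscan4-ps2* (2.07, SE 0.46, adjusted p = 0.0026) were up-regulated, and *Zscan4-ps1* had 1.41 (adjusted p = 0.030). All 3 were called up-regulated in *Nrde2*-KO 2 (between 2.94 and 3.39) and in *Mtrex*-KO (between 4.09 and 4.43). Of all genes, 2.4% and 15.8% were called up-regulated there, respectively. None was called in *Nrde2d200*, *Nrde2-D174R* or *Ccdc174-dTAG* by limma, where 2.65%, 0.215% and 1.38% of all genes were called. *Zscan4-ps2* did not pass the filter in the control libraries alone. *Zscan4-ps2* is 99.8% identical to *Zscan4f* and holds 100 unique positions, so its reads and those of *Zscan4f* are told apart over few bases.

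Other genes of the region mostly had few counted reads or none. Of 41 annotated genes within 100 kb of the members, which include the vomeronasal receptor gene *Vmn1r71*, 23 had no read in any of the 28 libraries, 37 had fewer than 20 reads in all libraries together, and 3 could be tested. Of all 55335 genes, 39494 had a read in at least 1 library. Unique positions were not computed for these neighbours, so genes without transcripts and genes that cannot be counted uniquely were not told apart. *Gm18204*, on the plus strand 3344 bases from *Zscan4d*, had 1 and 0 reads in *Mtrex*-WT and 286 and 76 in *Mtrex*-KO, and rose by 4.36 on the log2 scale (SE 0.39, adjusted p = 3.0e-08 from limma). *Gm45551*, which lies 34742 bases from *Zscan4-ps2*, had 6 and 7 reads against 417 and 103 and rose by 4.12 (SE 0.41, adjusted p = 1.3e-07). In both *Mtrex*-KO libraries these genes were above the control. Outside *Mtrex*-KO neither exceeded 0.435 normalized CPM in any library, so both passed the filter only through *Mtrex*-KO and had to differ there.

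In *Nrde2*-KO both libraries were above both controls on few reads, with 9 and 5 of *Gm18204* against 1 and 1 (0.60, adjusted p = 0.26 from limma) and 6 and 3 of *Gm45551* against 0 and 0 (0.52, adjusted p = 0.36). In *Nrde2*-KO 2 there were 14 and 12 reads of *Gm18204* against 0 and 0 (1.34, SE 0.39, adjusted p = 0.015 from limma) and 6 and 14 of *Gm45551* against 1 and 2 (0.84, adjusted p = 0.13), and neither was called. *Gm7789*, 9382 bases from *Zscan4c*, went the other way in *Mtrex*-KO, with 28 and 14 reads in *Mtrex*-WT and 2 and 0 in *Mtrex*-KO, and fell by 1.52 (SE 0.30, adjusted p = 2.3e-04).

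Genes known from the 2C stage were described from a list of 42, of which 21 were tested without CHX. In *Nrde2*-KO, 18 of the 21 were called up-regulated and none down, with a median log2 fold change of 2.13 against 0.005 over all genes, of which 3.02% were called up-regulated. Among them were *Usp17lb* (3.19, SE 0.49), *Usp17le* (2.90, SE 0.55) and *Usp17la* (2.51, SE 0.57), of a family of deubiquitinating enzymes, and *Tcstv3* (2.24, SE 0.39). *Arg2*, the mitochondrial arginase, rose by 2.26 (SE 0.38), *Fgf1*, a growth factor, by 1.85 (SE 0.28) and *Zfp352*, a zinc-finger gene, by 1.77 (SE 0.36). *Tcstv1* (1.27, adjusted p = 0.041 from limma), *Pramel7* (0.63, adjusted p = 0.040) and *Tdpoz3* (0.29, adjusted p = 0.59) were not called. *Nrde2*-KO 2 had 19 of 21 up (median 2.97; 2.4% of all genes up), *Mtrex*-KO 20 of 21 (median 3.45; 15.8%) and *Nrde2d200* 4 of 21 (median 1.22; 1.58%). Many of the 21 passed the filter only through mutant libraries, among them *Usp17la*, *Usp17le*, *Tcstv3*, *Fgf1* and *Zfp352*. *Tcstv1*, *Tdpoz3* and *B020004J07Rik* passed only through *Mtrex*-KO, so nothing is read from their part in its count. Of the 9 that pass in the 8 control libraries alone, 8 were called up-regulated in *Nrde2*-KO, 7 in *Nrde2*-KO 2, 8 in *Mtrex*-KO and 2 in *Nrde2d200*. In *Nrde2-D174R* and *Ccdc174-dTAG* limma called none, with medians of -0.06 and -0.07. *Tdpoz3* had 7.77 and 3.04 normalized CPM in *Mtrex*-KO and at most 0.838 in any other library.

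Genes that are known to act upstream of the cluster moved less in RNA-seq. Of 6 activators tested, limma called none in *Nrde2*-KO (median 0.17) or *Nrde2*-KO 2 (median 0.21). *Dppa2*, a factor that binds and activates promoters of 2C genes, had 0.91 in *Nrde2*-KO (SE 0.21, adjusted p = 0.0037), short of the fold threshold. In *Mtrex*-KO, 3 of 6 were called up-regulated, *Gata2* (1.70, SE 0.27), *Nelfa* (1.24, SE 0.16) and *Dppa2* (1.06, SE 0.21), where 15.8% of all genes were called up-regulated. Of 24 repressors, none was called by limma in the RNA-seq of *Nrde2*-KO, where the median was -0.15. *Ehmt2*, which encodes a histone methyltransferase of repressed chromatin, had -0.84 in *Nrde2*-KO (SE 0.13, adjusted p = 9.9e-05) and was called down-regulated in *Nrde2*-KO 2 (-1.22, SE 0.13) and in *Mtrex*-KO (-1.36, SE 0.13). The others called in *Mtrex*-KO were *Chaf1b*, a subunit of the chromatin assembly factor CAF-1 (-2.07, SE 0.13), and *Uhrf1*, which maintains DNA methylation with DNMT1 (-2.01, SE 0.12). These 3 of 24 stand beside 10.9% of all genes called down-regulated in *Mtrex*-KO, and the 1 of 24 in *Nrde2*-KO 2 beside 2.42%, so nothing is read from either count. In the Ribo-seq of *Nrde2*-KO, limma called 4 of the 24 repressors down-regulated (median -0.40), beside 2.8% of all genes. *Dux*, a known activator, is listed in the annotation used as *Duxf3*, which did not pass the filter and was not tested. *Duxf3* had 0.329 and 0.263 normalized CPM in *Nrde2*-KO against 0 and 0.0775 in *Nrde2*-WT, 1.12 and 0.415 in *Nrde2*-KO 2 against 0.233 and 0.0299, and 0.832 and 0.242 in *Mtrex*-KO against 0.0816 and 0. In these 3 experiments both mutant libraries were above both controls, at low levels.

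The genes whose pattern was most like that of the cluster were sought over the 28 RNA-seq libraries among 15218 genes outside the family. *Gm5039* was closest, with a Pearson correlation of 0.995 and a Spearman correlation of 0.991 to the summed level, followed by *Gm5662* (0.989 and 0.960), *Gm2016* (0.988 and 0.965), *Usp17lc* (0.985 and 0.974) and *Gm8300* (0.982 and 0.985). All but *Usp17lc*, which lies on chromosome 7, are on chromosome 12. *Gm5039* had a mean of 0.594 normalized CPM in *Nrde2*-WT, 5.68 in *Nrde2*-KO, 2.96 in *Mtrex*-WT and 45.5 in *Mtrex*-KO. Without the *Mtrex*-KO libraries the Pearson values were between 0.979 and 0.993 over 26 libraries. Within the cluster, the Pearson correlation between members ran from 0.811 (*Zscan4b* and *Zscan4d*) to 0.985 (*Zscan4c* and *Zscan4f*). These libraries share groups, replicates and normalization, and the correlations are descriptions without a test.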

How the data were processed

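RNA-seq (28 libraries, 14 groups) and Ribo-seq (4 libraries) of mESCs were analysed. The authors aligned RNA-seq reads to mm10 with STAR (2.7.3a in the submitters' processing notes), counted uniquely mapping reads of the sense strand per GENCODE M23 gene with featureCounts, and deposited them as CPM; Ribo-seq reads were first trimmed and collapsed. Unique counting leaves out reads that fit several *Zscan4* genes. The deposited CPM were whole multiples of 1 read (100% of values within 0.1 of a whole number), so reads were recovered. Depths are given with the results; a member with few reads is measured imprecisely.

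Each library's CPM were scaled by one median-of-ratios factor (all 28 libraries together), and log2 of the value plus 0.25 was taken. limma 3.58.1 (R 4.3.3) with a mean-variance trend was fitted to genes that averaged 0.5 CPM or more, in 20 libraries without CHX (14889 genes), 8 with CHX (15476) or 16 for CHX against none (15133), with Benjamini-Hochberg adjustment over all genes of the fit and call thresholds taken from the methods of the study. The groups came from GEO's labels. Samples of RNA bound to the proteins (BCLIP-seq) were not used here. A simulation with 200 changed genes was used to test the fit. Replicates are independent by the series' design text. Deviations of same-numbered samples from their group means correlated in all pairs of groups of the *Ccdc174* experiment (r between 0.18 and 0.38) and of the second *Nrde2* experiment (between 0.12 and 0.37), so the replicate number was taken to pair them, from the data alone. The main fits held the group only and did not use this pairing, which entered as a replicate block among the alternatives.

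The members and lists were chosen with earlier results of these data known. Reported were all members, the targeted genes, the lists, genes within 100 kb, and the 5 genes of highest Pearson correlation with the summed cluster. Gene positions, 50-base uniqueness over 65 sequences of GRCm38 and exon models used GENCODE M21, which holds 55154 of the 55335 gene identifiers; the counts rest on M23. Sequences were read with Biopython 1.88 and aligned with MAFFT 7.526; promoter windows are from RefSeq (GRCm38.p6) and primers from the study. The alternatives tried were adding 0.1 or 1 before log2, filtering at 1 CPM or not at all, CPM as deposited, the compared groups alone, the replicate number as a block, edgeR 4.0.16 and DESeq2 1.42.0 on recovered reads (minima of 200, 80 and 160 reads), and leaving out each library.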

Additional observations from a re-analysis of the deposited data

Results flagged for a closer look

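Tested as an interaction in limma, the difference between the effects of *Mtrex*-KO and *Nrde2*-KO was called for 3 members. The log2 difference was 3.69 for *Zscan4e* (adjusted p = 0.0018), 3.66 for *Zscan4b* (adjusted p = 0.0017) and 2.60 for *Zscan4f* (adjusted p = 0.0056). edgeR called 0 of the 6 members, with an unadjusted p below 0.05 for 4, DESeq2 called 2 (*Zscan4b* and *Zscan4e*), and limma on the compared groups alone called 0. These 3 are the members with the fewest unique positions, between 171 and 197. *Zscan4b* and *Zscan4e* entered the fit only through the *Mtrex*-KO libraries, where they are high, so nothing is read from their calls. Of the other 4 members 1 was called, *Zscan4f*, where 18.7% of all genes were. Without *Mtrex*-KO replicate 1, in which the 6 members together had 8612 reads against 2522 in replicate 2, none of the differences that could be tested passed. The part of unique mapping, of the duration of induction and of the spread between the *Mtrex*-KO libraries in these differences was not tested.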

How the results depend on the processing

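Under alternatives other than leaving out 1 library, 136 counts of members called stayed within 1.5 times the main count and 15 did not. In *Nrde2*-KO (4 called) 1 member was called with 1 added or without a filter, and 1 to 1 with a library left out. *Nrde2d200* (1 called) had 2 with CPM as deposited or DESeq2, 4 with the compared groups alone and 0 to 1 with a library left out. The *Mtrex*-KO effect against the *Nrde2*-KO effect (3 called) had 1 without a filter, 0 with edgeR or the compared groups alone, and 0 to 5 with a library left out. For CHX in *Nrde2*-KO 2 (1 called), 0 were called with 0.1 added, no filter, CPM as deposited, DESeq2 or any library left out (0 to 0). For CHX in *Ccdc174-dTAG* (0 called), 0 to 2 were called with a library left out.

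With the replicate number as a block, 4 members were called in *Nrde2d200*, 5 for the *Mtrex*-KO effect against the *Nrde2*-KO effect and 2 for CHX in *Ccdc174-dTAG*, and no other count of members called changed. In the first *Nrde2* experiment same-numbered samples of 2 groups had r between -0.03 and 0.27, so they were taken to share only a number there. The *Mtrex* experiment has 1 pair of groups, with r = 0.41, above every pair of the other experiments. Whether its replicates are paired was not settled, and its main fit had no block.

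*Zscan4d* under CHX in *Nrde2*-WT 2 turned to 0.011 with CPM as deposited. No called value turned. With a library left out, uncalled values that turned ranged as follows. In *Nrde2-D174R*, *Zscan4f* had -0.44 to 0.20 and *Zscan4d* -0.10 to 0.48. In *Ccdc174-dTAG*, *Zscan4a* had -0.53 to 0.75, *Zscan4c* -0.38 to 0.92, *Zscan4e* -0.25 to 0.0014 and *Zscan4f* -0.72 to 0.52. For *Nrde2*-KO against *Nrde2d200*, *Zscan4a* had -0.23 to 0.90, *Zscan4b* -0.18 to 0.33 and *Zscan4c* -0.012 to 0.72. In *Ccdc174-dTAG* with CHX, *Zscan4a* had -0.82 to 0.25, *Zscan4c* -0.46 to 0.63, *Zscan4d* -0.28 to 0.85 and *Zscan4f* -1.02 to 0.11. For CHX in *Ccdc174*-WT, *Zscan4d* had -0.82 to 0.31, and in *Ccdc174-dTAG*, *Zscan4c* had -1.12 to 0.18. A lone remaining library was assumed to vary like the other groups, and the causes were not tested.

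Depth limits *Zscan4b* and *Zscan4e*, which rest on fewer than 30 reads in most groups, and all members in Ribo-seq. Groups have 2 libraries, and exact tests on single values cannot pass.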
